A study of Mus musculus with 16 samples.

Results

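The 7 genes described here encode the MEF2 transcription factors Mef2a, Mef2c and Mef2d and the class IIa histone deacetylases Hdac4, Hdac5, Hdac7 and Hdac9. They were taken by gene symbol from a table of 35275 genes, and each symbol named 1 row. The values come from C2C12, a mouse muscle precursor cell line that forms multinucleate myotubes once serum is lowered, and whose cells the labels call PAX7 negative. Poly(A) RNA was sequenced from 16 libraries in 4 groups of 4. Control cells, given as wild type, came from population 1 and population 2 (line 1 and line 2 below). The triple-knockout (tKO) cells lack miR-206 and both miR-1a genes (miR-1a-1 and miR-1a-2) and came from clone 1 and clone 2, so that all tKO values rest on 2 clones. All lines were harvested in growth medium (GM), near confluence, and after 3 days in low-serum differentiation medium (DM3). Each line and stage had 2 replicates, named BR1 and BR2 in the labels and called replicate 1 and replicate 2 here. The labels do not say what was repeated between them, so the p-values measure only the spread between these libraries. The study's title names mitochondrial and muscle function and myogenesis as the subject of the knockout.

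MEF2 factors bind an AT-rich element in the control regions of muscle genes and act there together with the myogenic bHLH factors. Class IIa deacetylases bind MEF2 directly and recruit corepressor complexes, while kinases such as CaMK, PKD and SIK phosphorylate them so that 14-3-3 proteins carry them out of the nucleus. The phosphatase calcineurin activates MEF2. Hdac4 is known as a target of the miR-1 and miR-206 family in muscle, and lower Hdac4 is thought to free MEF2 during differentiation.

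The microRNA sequence and its matches in Hdac4 are shown first, because they are what ties the knockout to this gene set. Mature miR-206-3p (RefSeq, GRCm38.p6, plus strand, chr1:20679055-20679076) is written with its seed, bases 2 to 8, in capitals. The longest annotated 3′ UTR of Hdac4 (GENCODE release M21, 4568 bases) held 2 matches to this seed, written as DNA with the match in capitals. The first, chr1:91930060-91930066 on the minus strand, pairs with bases 2 to 8, and the second, chr1:91930027-91930033, pairs with bases 2 to 7 and has an A opposite base 1.
miR-206-3p: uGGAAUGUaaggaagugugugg
Hdac4 match 1: tctttcctcagaACATTCCttcttcactg
Hdac4 match 2: cagccacgtgctCATTCCAtccttctttt

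The matches start 33 bases apart, at positions 3281 and 3314 of the 3′ UTR. Neither ACATTCC nor CATTCCA was found on the transcribed strand of the longest 3′ UTR of Mef2a, Mef2c, Mef2d, Hdac5, Hdac7 or Hdac9. Of 21015 genes with an annotated 3′ UTR, 16.95% held at least 1 of these 7-base strings, 10.07% held ACATTCC and 11.77% held CATTCCA. A match is a description of the letters and was not tested as a binding site.

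The promoters of 2 members, a Mef2 gene and a class IIa gene, held a 10-base match to the consensus of the element that MEF2 factors bind, and these are shown. They describe the letters and were not tested as binding sites. The sequences run from 250 bases before to 50 bases after the start site (RefSeq, GRCm38.p6, both on the minus strand), with the match in capitals. That of Hdac5 is chr11:102230123-102230422 and that of Mef2a is chr7:67372809-67373108.
Hdac5 promoter: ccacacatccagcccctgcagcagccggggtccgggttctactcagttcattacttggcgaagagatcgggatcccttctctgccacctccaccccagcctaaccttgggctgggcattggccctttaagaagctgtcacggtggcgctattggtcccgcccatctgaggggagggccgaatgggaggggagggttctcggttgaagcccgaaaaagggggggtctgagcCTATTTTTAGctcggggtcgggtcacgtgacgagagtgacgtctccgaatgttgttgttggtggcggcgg
Mef2a promoter: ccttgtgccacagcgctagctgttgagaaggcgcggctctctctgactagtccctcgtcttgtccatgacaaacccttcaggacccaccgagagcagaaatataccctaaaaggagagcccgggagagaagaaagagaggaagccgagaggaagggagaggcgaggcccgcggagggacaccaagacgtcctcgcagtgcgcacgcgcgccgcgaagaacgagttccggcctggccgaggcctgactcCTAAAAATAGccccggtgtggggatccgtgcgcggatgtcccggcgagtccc

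The match began 20 bases before the annotated start in Hdac5 and 2 bases before it in Mef2a. The Hdac5 string CTATTTTTAG and the Mef2a string CTAAAAATAG are reverse complements of each other, that is, the same string on opposite strands. Searched on both strands, the consensus was found in 3.19% of 32851 promoters of this length, and this exact 10-base string in 36 of them (0.11%). None of the other 11 promoter entries of the members held a match. The E-box CANNTG was found in 72.31% of these promoters and in 7 of the 13 entries of the members.

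Depth was 22642563 to 56585952 fragments per library, worked out from the deposited values. Tests below used limma on log2(FPKM + 1) over the 11832 genes with a mean of at least 0.5 FPKM (fragments per kilobase, scaled to the size of the library), with Benjamini-Hochberg adjustment and a threshold of 0.05. Of the 7 members, 5 passed this filter. Mef2c (mean 0.043 FPKM over the 16 libraries) and Hdac9 (0.393 FPKM) did not, and for them a two-sided exact permutation test over the 70 ways to split 8 libraries was used. The summed FPKM of 10 myotube markers, among them Ckm, Myh3, Acta1 and Myog, lay between 9.12 and 12.7 in control GM and between 10.8 and 73.5 in tKO GM. Acta1 made up most of these GM sums, at 7.68 to 9.48 FPKM in control and 9.02 to 72.1 in tKO libraries. Myog, Ckm and Myh3 reached at most 0.113, 0.161 and 0.00538 FPKM in tKO GM. In DM3 the sum of the 10 markers lay between 852 and 1355 in control and between 343 and 1447 in tKO cells. Of the defining myoblast markers, Myod1 was listed at 0 in the 4 control GM libraries and at 0.746 to 2.75 FPKM in control DM3, while Myf5 had a mean of 17.0 FPKM in control GM. C2C12 myoblasts usually express Myod1, and the counting behind its row is not given in the sources used here, so its values are uncertain. The microRNAs themselves are not measured in poly(A) RNA. The row named mmu-mir-133b, a neighbour of miR-206, had 0 to 4 fragments in control GM, 0 in each tKO GM library, 59 to 608 in control DM3 and, in tKO DM3, 14 to 152. The deleted stretch is not given in the sources used here, so these values do not check the labels.

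**Figure D1:**
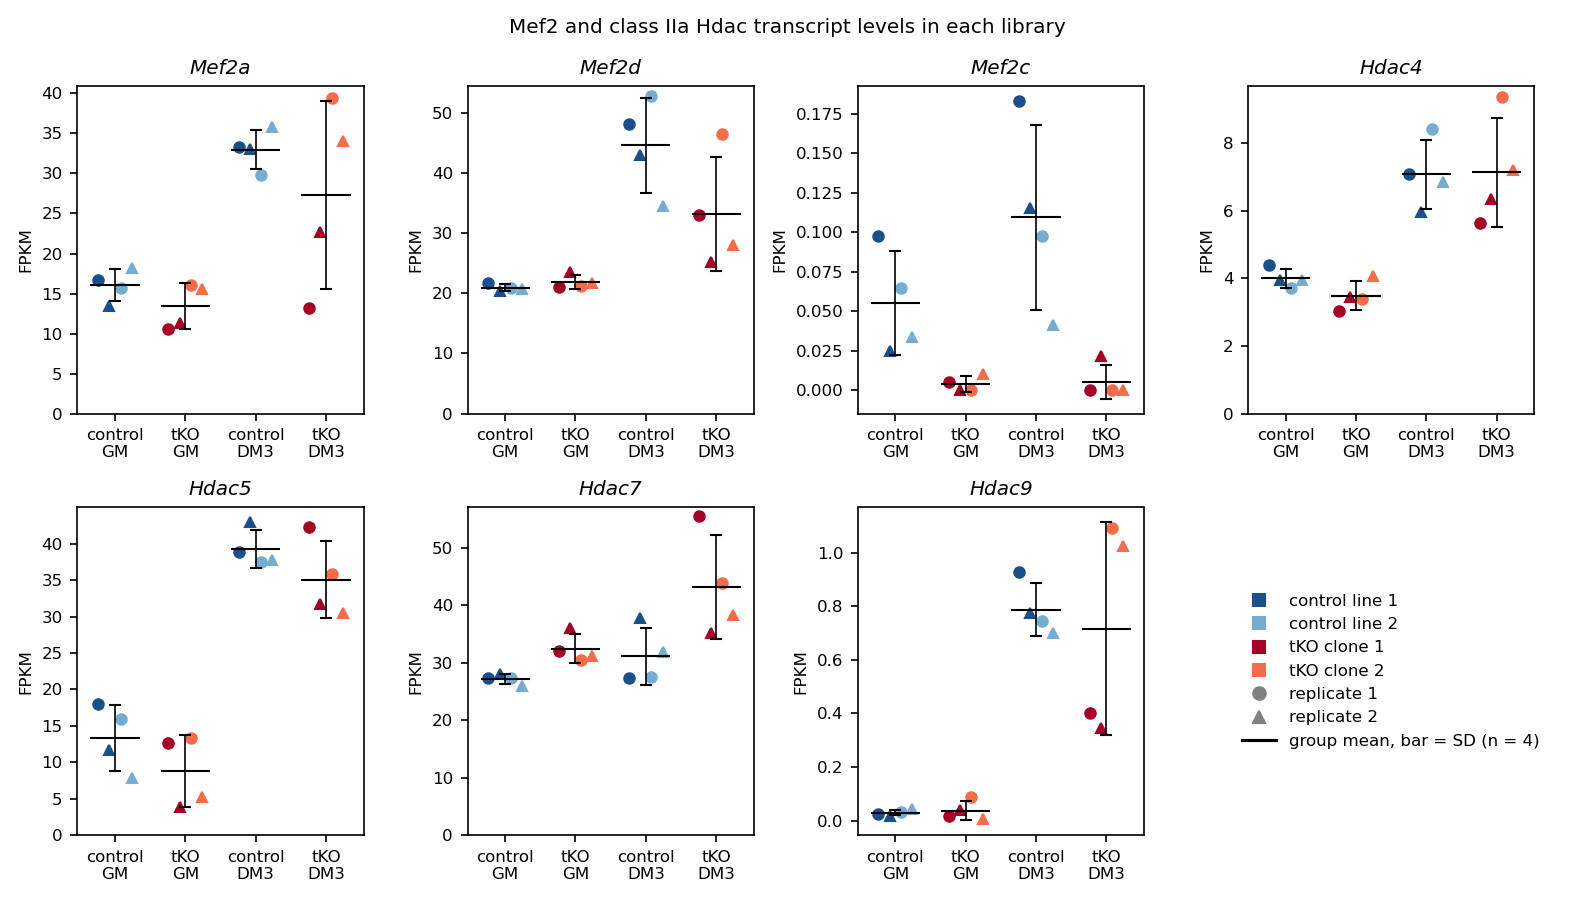
FPKM of each of the 7 genes in the 16 libraries, by group (x axis; GM, growth medium; DM3, day 3 of differentiation). Colours mark the line or clone, shapes the replicate number, horizontal lines the group mean and bars the SD of 4 libraries. Mef2a, Mef2d, Hdac4, Hdac5 and Hdac9 sit higher in DM3 than in GM in the control cells, Mef2a and Hdac9 split by clone in tKO DM3, and Mef2c is at or near 0 in the tKO libraries.

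Mef2a, one of the 2 Mef2 genes with substantial transcript in these cells, rose with differentiation and differed between the tKO clones. In the order line 1 replicate 1, line 1 replicate 2, line 2 replicate 1 and line 2 replicate 2, used for all lists of 4 values, control GM held 16.7, 13.4, 15.7 and 18.2 FPKM. The 4 tKO GM libraries held 10.6, 11.3, 16.1 and 15.6 FPKM. After 3 days the control libraries held 33.3, 33.0, 29.8 and 35.8 FPKM and the tKO libraries 13.2, 22.6, 39.5 and 34.1 FPKM. Control GM and control DM3 did not overlap, whereas tKO DM3 spanned a range that reached from below the highest tKO GM library to above every control. Group means were 16.0 ± 2.00 in control GM, 13.4 ± 2.86 in tKO GM, 33.0 ± 2.47 in control DM3 and 27.4 ± 11.8 in tKO DM3 (FPKM, SD, n = 4). On the log2(FPKM + 1) scale Mef2a was 1.00 ± 0.24 (SE) higher in DM3 than in GM in control cells (limma adjusted p = 0.00184) and 0.89 ± 0.24 higher in tKO cells (adjusted p = 0.00442). Without control line 1 the control change was 0.91 and missed the threshold (limma adjusted p = 0.0874).

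Between genotypes Mef2a did not pass the test in either stage. The tKO-minus-control difference was -0.25 in GM (limma adjusted p = 0.641) and -0.37 in DM3 (adjusted p = 0.470), with a 95% interval of -0.88 to 0.14 for the latter. Clone 1 alone lay below every control library, by -0.50 in GM and -0.89 in DM3, and clone 2 lay at -0.0044 and 0.15 from the control mean. With clone 2 left out, the DM3 difference of -0.89 passed the threshold (adjusted p = 0.00874). A direct comparison of the clones over both stages, added after the values were seen, gave 0.77 ± 0.15 (SE) higher Mef2a in clone 2 (limma adjusted p = 0.0125), with all 4 clone 2 libraries above the clone 1 library of the same stage and replicate number. When only the 8 tKO libraries were fitted, the same difference missed the threshold (adjusted p = 0.0916). The 2 control lines differed by 0.07 (adjusted p = 1.00). Of all genes tested, 640 (5.41%) were called between the clones, 374 of them (3.16%) higher in clone 2, and 0 (0%) between the control lines, where 42 had an unadjusted p under 0.05. Mef2a was the only 1 of the 5 tested members called between the clones.

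Mef2d, the most abundant Mef2 transcript in growth medium, was level across the growing cells and rose with differentiation. Control GM libraries held 21.7, 20.4, 20.9 and 20.8 FPKM, and tKO GM libraries held 21.0, 23.6, 21.3 and 21.7 FPKM. The SD over 4 libraries was 0.581 and 1.14 FPKM in these groups, against 7.88 and 9.43 FPKM in control and tKO DM3. In DM3 the control libraries held 48.2, 43.0, 52.9 and 34.5 FPKM and the tKO libraries 33.1, 25.3, 46.5 and 28.0 FPKM. The tKO libraries were on the low side, with 3 of 4 below the lowest control and 1 within the control range. Mef2d rose by 1.04 ± 0.16 (log2, SE) in control cells (limma adjusted p = 2.7e-05) and by 0.54 ± 0.16 in tKO cells (adjusted p = 0.00645). The tKO rise missed the threshold without clone 2 (0.36, adjusted p = 0.114).

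The genotype difference of Mef2d in DM3 was -0.44 (95% interval -0.77 to -0.11) and missed the threshold after adjustment over all genes (limma adjusted p = 0.154). It depended on single libraries. Without replicate 1 of clone 2 it was -0.61 (adjusted p = 0.0144), and without clone 2 altogether -0.59 (adjusted p = 0.0338). In DM3, replicate 2 held less Mef2d than replicate 1 in each of the 4 lines, by 0.38 on average in control and 0.54 in tKO cells. Taken within each replicate number, the mean tKO-minus-control difference was -0.36 and -0.52. With that number within each stage as a term, a fit added after the data were seen, the difference passed (limma adjusted p = 0.0263). That fit called 748 genes between genotypes in DM3, against 400 in the main fit. The summed myotube markers of the tKO DM3 libraries also split by replicate number, at 1411 and 1447 FPKM in replicate 1 and 343 and 479 FPKM in replicate 2. Their part in the Mef2d values was not tested. The genotype by stage interaction was -0.50 ± 0.22 (SE, adjusted p = 0.427). In bulk RNA, fewer cells of a type and less RNA per cell cannot be told apart.

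Mef2c, the factor needed for heart and muscle development, was detected at trace level, and its fragments were almost all in control libraries. Control GM libraries had 22, 4, 14 and 7 fragments and tKO GM libraries 1, 0, 0 and 2. In DM3 the control libraries had 45, 42, 20 and 9 fragments and the tKO libraries 0, 4, 0 and 0. No tKO library reached the lowest control of its stage, and 7 of 8 tKO libraries were at or under the floor of 3 fragments. As FPKM the means were 0.055 ± 0.033 in control GM and 0.109 ± 0.059 in control DM3 (SD, n = 4), against 0.0038 and 0.0054 in the tKO groups. Per sequenced fragment the controls were higher by a ratio of 14.2 in GM (47 against 3 fragments, 95% interval 4.58 to 71.4) and 21.6 in DM3 (116 against 4, interval 8.23 to 80.7), intervals that cover counting error only. Each comparison gave an exact permutation p of 0.0286, the smallest that 70 splits allow. After adjustment over the 4 contrasts of the gene it was 0.0571, which misses the threshold. With only these contrasts at the smallest p, the adjustment could not give less, whatever the size of the difference. With every gene in the limma fit, the difference passed in DM3 (adjusted p = 0.0289) and not in GM (adjusted p = 0.362). The stage change in control cells, 116 against 47 fragments, had an exact p of 0.171.

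Marker sums of other cell types were set beside the Mef2c difference. The summed FPKM of 4 fibroblast markers (Pdgfra, Thy1, Dpt and Lum) was 2.79 to 4.12 in control GM and 0.766 to 1.90 in tKO GM. In DM3 the sums overlapped, at 3.06 to 5.37 against 1.35 to 4.30. Both clone 2 sums there (3.36 and 4.30) lay within the control range, and these libraries held no Mef2c fragment. The lower sum came from Pdgfra, with means of 3.23 against 0.778 FPKM in GM and 3.39 against 1.61 in DM3. Thy1, Dpt and Lum had higher means in tKO GM (0.0907, 0.302 and 0.0451) than in control GM (0.0191, 0.208 and 0.0145). In DM3 Dpt and Lum were again higher and Thy1 lower. The 4 endothelial and blood markers overlapped between the genotypes, at 1.17 to 2.03 against 0.821 to 3.25 FPKM in GM. Their part in the Mef2c values was not tested. Mef2b, the other gene of the family, was at 0 in all GM libraries and at most 0.0263 FPKM in DM3.

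Hdac4, the family's reported target and a corepressor of MEF2, did not differ detectably between tKO and control cells. Control GM libraries held 4.40, 3.95, 3.73 and 3.95 FPKM and tKO GM libraries 3.03, 3.46, 3.38 and 4.06 FPKM. After 3 days the control libraries held 7.09, 5.98, 8.44 and 6.85 FPKM and the tKO libraries 5.63, 6.35, 9.38 and 7.20 FPKM. The tKO values spread on both sides of the controls in DM3, clone 1 on the low and clone 2 on the high side, and in GM all but 1 lay below the controls. The means in DM3 were 7.09 ± 1.02 in control and 7.14 ± 1.63 in tKO cells (FPKM, SD, n = 4). The tKO-minus-control difference was -0.16 in GM (95% interval -0.45 to 0.13, limma adjusted p = 0.587) and -0.0032 in DM3 (interval -0.29 to 0.29, adjusted p = 0.995). An increase of Hdac4 mRNA of more than 0.29 on the log2(FPKM + 1) scale in DM3, or 0.13 in GM, lay outside these intervals. Protein was not measured.

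With differentiation Hdac4 rose in both genotypes. The change was 0.68 ± 0.14 (log2, SE) in control cells (limma adjusted p = 0.000398) and 0.84 ± 0.14 in tKO cells (adjusted p = 5.6e-05), and GM and DM3 did not overlap in either. Without control line 2 the control change was 0.54 and missed the threshold (adjusted p = 0.0649). The interaction was 0.16 (95% interval -0.25 to 0.57, adjusted p = 0.794), so no difference between the genotypes' stage changes was detected.

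Hdac5, a class IIa deacetylase that also binds MEF2, had the largest stage change of the 5 tested members on the log2(FPKM + 1) scale and stood beside Hdac7 as an abundant class IIa transcript. Control GM libraries held 18.0, 11.7, 15.9 and 7.82 FPKM and tKO GM libraries 12.7, 3.91, 13.3 and 5.20 FPKM. Replicate 2 was the low one in each of the 4 lines, by -0.76 (log2) in control and -1.34 in tKO cells. All DM3 libraries lay above all GM libraries, at 38.8, 43.0, 37.5 and 37.8 FPKM in control and 42.3, 31.7, 35.8 and 30.5 FPKM in tKO cells. Hdac5 rose by 1.55 ± 0.30 (SE) in control cells (limma adjusted p = 0.000301) and by 2.03 ± 0.30 in tKO cells (adjusted p = 2.3e-05).

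The genotype difference of Hdac5 was -0.65 in GM (95% interval -1.28 to -0.02, limma adjusted p = 0.270) and -0.17 in DM3 (adjusted p = 0.833), and neither passed. Over all GM libraries the tKO and control ranges of Hdac5 overlapped. Taken within each replicate number, the mean difference was -0.36 in replicate 1 and -0.94 in replicate 2. With the replicate number within each stage as a term, a fit added after the data were seen, the GM difference passed (limma adjusted p = 0.0238). That fit called 635 genes between genotypes in GM, against 244 in the main fit. The summed FPKM of smooth muscle markers (Acta2, Tagln, Cnn1 and Myh11), contractile genes that C2C12 myoblasts also express, followed the replicate number in GM as well. It was 1874 and 1930 in replicate 1 of the control lines and 2971 and 3165 in replicate 2, and 2075 and 2420 against 6117 and 5728 in the tKO clones. Their part in the Hdac5 values was not tested.

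Hdac7, a class IIa member best known from endothelial cells and thymocytes, was the most abundant of the 7 transcripts in growth medium and lay on the high side in tKO cells. Control GM libraries held 27.3, 28.0, 27.2 and 25.9 FPKM and tKO GM libraries 31.9, 36.0, 30.5 and 31.1 FPKM. The groups did not overlap, as was so for 14% of the genes tested, and Hdac7 was the only 1 of the 5 tested members of which this held. In DM3 the controls held 27.2, 37.8, 27.5 and 31.8 FPKM and the tKO libraries 55.5, 35.1, 43.8 and 38.2 FPKM, of which 1 lay within the control range. The differences were 0.24 ± 0.13 in GM (limma adjusted p = 0.353) and 0.45 ± 0.13 in DM3 (95% interval 0.17 to 0.73, adjusted p = 0.0745), and neither passed. In DM3 the difference was 0.83 in replicate 1 and 0.08 in replicate 2. It passed narrowly without replicate 2 of control line 1 (0.55, adjusted p = 0.0493) or without replicate 2 of clone 1 (0.54, adjusted p = 0.0484).

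The stage change of Hdac7 was the smallest of the tested members. It was 0.18 ± 0.13 in control cells (limma adjusted p = 0.251) and 0.39 ± 0.13 in tKO cells (adjusted p = 0.0184). The median change of all genes tested was -0.15 in control and -0.12 in tKO cells on this scale, and median-of-ratios scaling moved it to 0.01 in both. Under that scaling the control change was 0.38 and passed (adjusted p = 0.0479). The tKO change missed the threshold without replicate 1 of clone 1 in DM3 (0.26, adjusted p = 0.0634), without clone 2 (0.37, adjusted p = 0.137) and when only the tKO libraries were fitted (adjusted p = 0.0579). Hdac7 shares 29 exon bases with Slc48a1, a heme transporter gene on the opposite strand that reached 180.0 FPKM and was 0.45 and 0.88 higher in DM3 in control and tKO cells (adjusted p = 0.0388 and 0.000483). Whether counting used the strand is not given in the sources used here, so its part in the Hdac7 values was not tested.

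Hdac9, the class IIa member that MEF2 itself is known to induce, was almost absent in growth medium and appeared in DM3. Control GM libraries had 4, 2, 5 and 6 fragments and tKO GM libraries 2, 4, 12 and 1. In DM3 the controls had 157, 194, 105 and 105 fragments and the tKO libraries 57, 44, 134 and 141. As FPKM, the control DM3 libraries held 0.930, 0.775, 0.746 and 0.701 and the tKO DM3 libraries 0.402, 0.346, 1.09 and 1.02. Both clone 1 libraries lay below every control and both clone 2 libraries above, the same order of the clones as for Mef2a. Per sequenced fragment DM3 exceeded GM by a ratio of 25.9 in control cells (561 against 17 fragments, 95% interval 16.0 to 44.8) and 18.9 in tKO cells (376 against 19, interval 11.9 to 31.8), counting error only. The exact permutation p was 0.0286 for each, the smallest possible, and 0.0571 after adjustment over 4 contrasts. With only these contrasts at the smallest p, the adjustment could not give less. With every gene in the limma fit both passed (adjusted p = 0.00014 and 0.000423). Between genotypes the exact p was 0.829 in GM and 0.543 in DM3. The row in the table covers chr12:34371503-34528889, which is part of the GENCODE gene, so transcripts that start outside it may be missed.

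**Figure D2:**
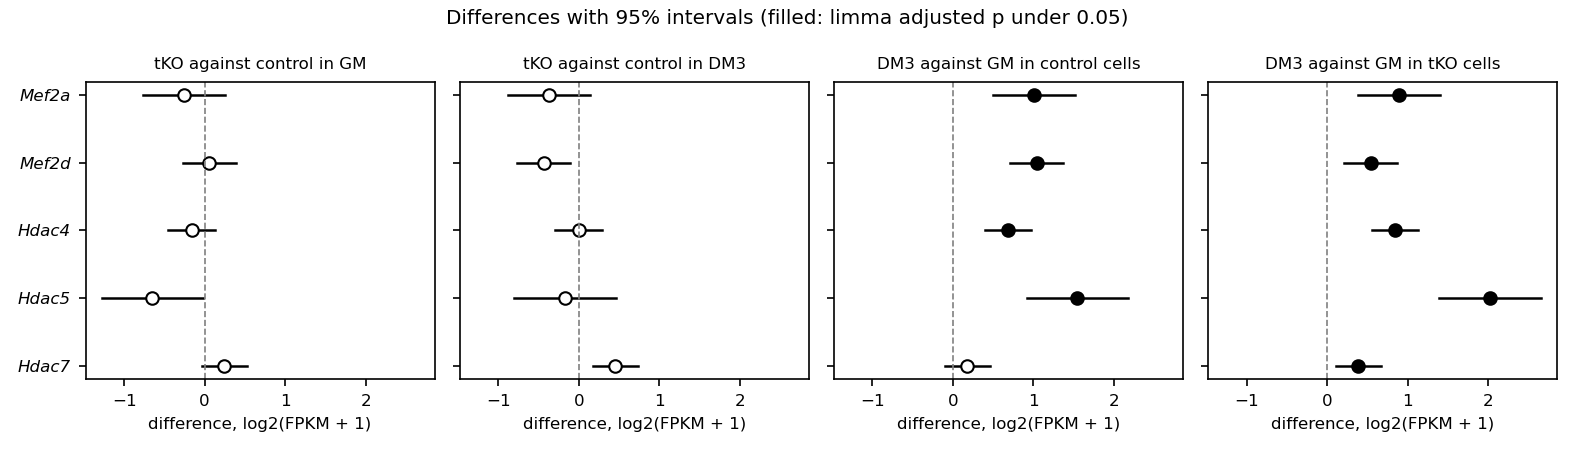
Differences of the 5 tested members in 4 comparisons, on the log2(FPKM + 1) scale, with 95% intervals not adjusted for the number of genes. Filled points passed the limma test at an adjusted p under 0.05. The genotype panels hold no filled point, 4 of 5 points are filled for control differentiation and 5 of 5 for tKO differentiation, all to the right of 0.

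Across the 5 tested members, none was called between tKO and control cells in GM, where 2.06% of all genes tested were called. None was called in DM3 either, where 3.38% were. Hdac5 in GM and Mef2d in DM3 passed with the replicate term given above. That term raised the calls over all genes from 244 to 635 in GM and from 400 to 748 in DM3. At an unadjusted p under 0.05, 1 of 5 members differed in GM (Hdac5), against 17.5% of all genes tested, and 2 of 5 in DM3 (Mef2d and Hdac7), against 16.8%. None was called for the interaction, for which 0.254% of genes were. Differentiation called 4 of 5 members in control cells and 5 of 5 in tKO cells, against 61.5% and 60.9% of all genes tested. All of these calls were higher in DM3, the direction of 23.2% of all genes in control and 24.9% in tKO cells. With median-of-ratios scaling these shares were 30.8% and 30.7%, and the calls over all genes moved from 2743 higher and 4529 lower to 3648 and 3615 in control cells, and from 2951 and 4257 to 3638 and 3537 in tKO cells. GM and DM3 libraries did not overlap for 4 of 5 members in control cells (64.4% of genes) and for 3 of 5 in tKO cells (49.1%). The 2 stage comparisons share no libraries. In DM3 no tested member had tKO and control libraries that did not overlap (8.52% of genes).

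The order of the transcripts changed with the stage. FPKM is scaled by gene length, so levels can be set beside each other, with a limit where exons are shared. Hdac4 (8100 bases) shares 3536 exon bases with Gm26720, a noncoding gene on the opposite strand listed at 0 FPKM. Mef2a and Mef2d share 302 and 531 with opposite-strand genes that reached 4.05 and 0.343 FPKM. How shared bases were counted is not given in the sources used here. Their part in these levels and in the shares below was not tested. In control GM Hdac7 (27.1 ± 0.916 FPKM, SD, n = 4) exceeded Mef2d (21.0 ± 0.581), which exceeded Mef2a (16.0 ± 2.00), and neither pair overlapped. Hdac5 (13.4 ± 4.53) overlapped with Mef2a and exceeded Hdac4 (4.01 ± 0.281) without overlap. In control DM3 Mef2d (44.6 ± 7.88) and Hdac5 (39.3 ± 2.56) led and overlapped, followed by Mef2a (33.0 ± 2.47) and Hdac7 (31.1 ± 4.93), which also overlapped. Hdac4 (7.09 ± 1.02), Hdac9 (0.788 ± 0.099) and Mef2c (0.109 ± 0.059) followed without overlap. In tKO DM3 Hdac7 had the highest mean (43.1 ± 8.98 FPKM), but it overlapped with Hdac5 (35.1 ± 5.32), Hdac5 with Mef2d (33.2 ± 9.43) and Mef2d with Mef2a (27.4 ± 11.8).

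**Figure D3:**
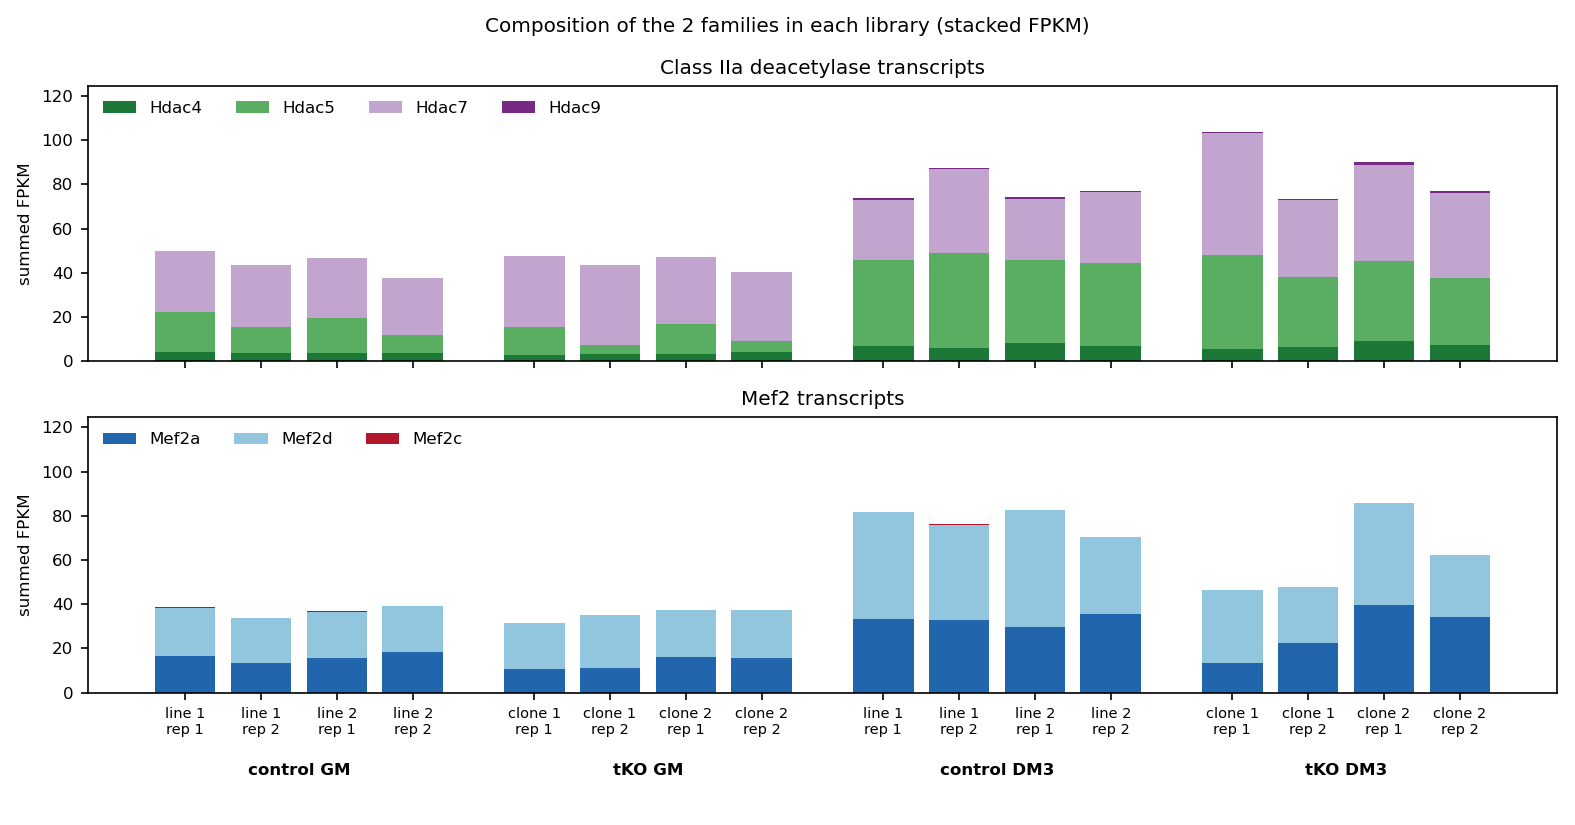
Summed FPKM of the class IIa genes (top) and of the Mef2 genes (bottom) in each of the 16 libraries, stacked by gene; rep, replicate. The Hdac5 part of the class IIa sum is 9.01% to 36.2% in GM and 39.6% to 52.4% in DM3, and the Mef2 sums of the tKO DM3 clones lie at 46.3 and 47.9 (clone 1) and 86.0 and 62.1 FPKM (clone 2).

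As a family, the class IIa transcripts summed to 44.5 ± 5.19 FPKM in control GM and 78.3 ± 6.37 in control DM3, and to 44.7 ± 3.46 and 86.1 ± 13.8 in tKO cells (SD, n = 4). Hdac7 made up 54.9% to 82.9% of that sum in the GM libraries and 36.8% to 53.5% in the DM3 libraries. Hdac5 made up 49.0% to 52.4% in the controls of DM3 and 39.6% to 43.2% in the clones. Hdac7 made up 36.8% to 43.1% in these controls and 47.7% to 53.5% in these clones. Shares of the same sum depend on each other, and the Hdac5 levels themselves overlapped between the genotypes in DM3. Hdac4, the member with the seed matches, made up 5.42% to 11.4% of the sum in any library. The Mef2 transcripts summed to 37.0 ± 2.34 FPKM in control GM, 35.3 ± 2.73 in tKO GM, 77.7 ± 5.73 in control DM3 and 60.6 ± 18.4 in tKO DM3. The ratio of the Mef2 sum to the class IIa sum was 0.870 to 1.11 in the DM3 controls and 0.446 to 0.955 in the DM3 clones, lowest in the clone 1 libraries (0.446 and 0.652). These sums and ratios describe the libraries and were not tested.

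**Figure D4:**
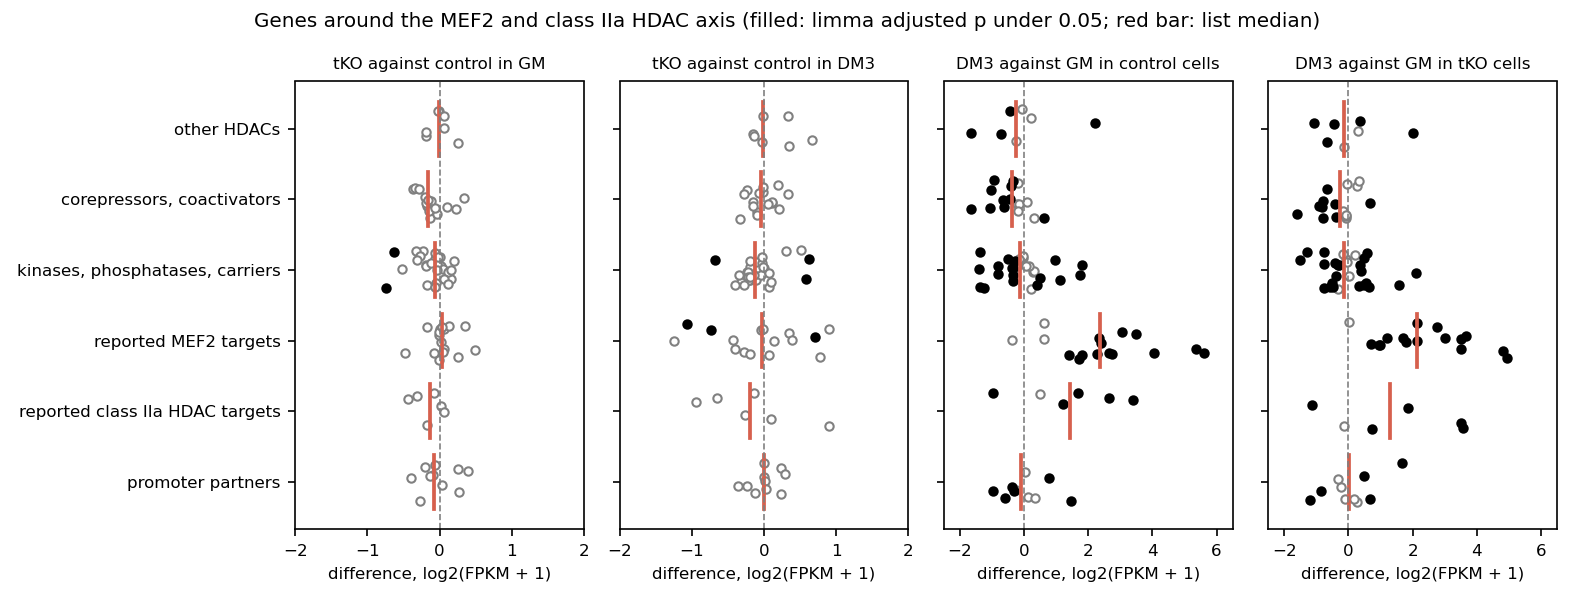
Differences on the log2(FPKM + 1) scale for the tested genes of 6 lists around MEF2 and the class IIa deacetylases, in 4 comparisons. Each point is a gene, filled where the limma adjusted p was under 0.05, and red bars are list medians. In control differentiation the reported MEF2 targets have a median of 2.36 and 13 of 16 filled points, all higher in DM3, as were 23.2% of all genes tested. Targets that passed the filter on low values only through DM3 had to differ. The genotype panels hold 2 (GM) and 6 (DM3) filled points, where 2.06% and 3.38% of all genes tested were called.

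Among the genes that carry or modify class IIa deacetylases, a few differed between tKO and control cells. Of 28 tested kinases, phosphatases and carriers, 0 were higher and 2 lower in tKO GM, where 2.06% of all genes tested were called, and 2 were higher and 1 lower in tKO DM3, where 3.38% were. The list medians were -0.06 and -0.13, against -0.01 and 0.01 over all genes tested. This is the largest of the lists. Ppp3ca, the calcineurin catalytic subunit, held 53.8, 50.7, 44.2 and 57.9 FPKM in control GM and 28.6, 21.9, 37.1 and 35.9 FPKM in tKO GM, with no overlap. It was lower by -0.75 in tKO GM (limma adjusted p = 0.0199), and the DM3 difference of -0.23 did not pass (adjusted p = 0.475). Camk1d, a calcium-dependent kinase, was lower by -0.63 in GM (adjusted p = 0.0293), at a mean of 2.36 ± 0.277 FPKM in control and 1.18 ± 0.332 in tKO cells (SD, n = 4). Sik1, a salt-inducible kinase that phosphorylates class IIa deacetylases, was lower by -0.69 in DM3 (adjusted p = 0.0367), at 18.1 ± 3.07 against 11.1 ± 3.26 FPKM. Ppp3ca lost its call without clone 1 (-0.48 at the least over all alternatives), and all 8 genes of these lists called between genotypes lost it without control line 1 and without control line 2.

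The 14-3-3 genes Ywhaz and Ywhab were higher in tKO DM3. Ywhaz held 74.4, 67.4, 70.8 and 82.1 FPKM in control DM3 and 80.3, 142, 106 and 139 FPKM in tKO DM3, a difference of 0.63 (limma adjusted p = 0.0259). Ywhab held 52.9, 34.1, 50.9 and 48.7 FPKM against 66.0, 88.4, 61.7 and 64.3 FPKM, a difference of 0.58 (adjusted p = 0.0367). In GM they differed by -0.12 and -0.04 (adjusted p = 0.726 and 0.926). Both fell with differentiation in both genotypes, Ywhaz by 1.26 in control and 0.51 in tKO cells and Ywhab by 1.37 and 0.75. The interaction was called for neither (adjusted p = 0.178 for Ywhaz and 0.279 for Ywhab). Of 30 alternative settings each, Ywhaz lost its DM3 call in 10 and Ywhab in 15. With only the compared libraries fitted both lost it (limma adjusted p = 0.159 and 0.161). In tKO DM3 Ywhaz was lower in replicate 1 (80.3 and 106 FPKM) than in replicate 2 (142 and 139 FPKM). The summed myotube markers split by that number too, at 1411 and 1447 against 343 and 479 FPKM. Their part in the Ywhaz values was not tested.

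The longest 3′ UTRs of these carriers held 8-base matches to the miR-206 seed that include the A opposite base 1, and they are shown beside those of Hdac4. The genes were picked after their values were seen. The Ywhaz match lies at chr15:36772138-36772145 on the minus strand, the Ywhab match at chr2:164018114-164018121 on the plus strand and the Camk1d match at chr2:5295211-5295218 on the minus strand, with ACATTCCA in capitals.
Ywhaz match: cagaaacggttcACATTCCAttatttgtaa
Ywhab match: ccctctaccttgACATTCCAtgtagccgta
Camk1d match: tttcccttaaccACATTCCAgaccaaacac

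The 8-base string was found in 3.8% of 21015 genes with an annotated 3′ UTR. Ywhaz also held a CATTCCA match elsewhere, whereas Hdac4 held no 8-base match. Of the 6 tested 14-3-3 genes, Ywhaz, Ywhab and Ywhaq held a 7-base or longer match, with tKO-minus-control differences in DM3 of 0.63, 0.58 and 0.31 (adjusted p = 0.0906 for Ywhaq). Ywhae, Ywhag and Ywhah held none, with differences of -0.22, -0.20 and -0.02. Camk1d, with a match, was lower in tKO GM. In DM3 the matched genes Prkaa2, Camk1d, Camk2g and Camk2d of the same list had differences of -0.41, -0.32, -0.21 and -0.19. Camk2a, also matched, had 0.51, and none of these was called. The 8 matched genes of the kinase, phosphatase and carrier list had a median DM3 difference of 0.06, and the 20 without a match -0.13. Whether matches go with the differences was not tested. Across all 6 lists, 10 of the 82 tested genes, matched by gene ID, held a match. Of these 10, 0 were higher and 1 lower in tKO GM, and 2 were higher and 0 lower in tKO DM3. Of the 72 without, 0 and 1 were called in GM and 1 and 3 in DM3.

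Most tested genes reported as MEF2 targets in muscle rose with differentiation. Of 23 listed, 16 passed the filter on low values, and 13 of these were higher and 0 lower in control DM3 (median 2.36), while 15 were higher and 0 lower in tKO DM3 (median 2.14). Klhl41, a sarcomere-associated protein, rose by 5.60 in control cells, Myom2, an M-band protein, by 5.36 and Klhl40 by 4.04. Over all genes tested, 23.2% were higher in DM3 in control cells and 24.9% in tKO cells. A target that passed the filter through its DM3 libraries had to differ, so these counts are a description. Klhl41 and Klhl40, with control GM means of 0.090 and 0.039 FPKM, were such targets. Between genotypes 0 were called in GM, where 2.06% of all genes tested were called. In DM3, where 3.38% were, 1 was higher and 2 lower. Smyd1, a methyltransferase needed for sarcomere assembly, was 0.71 higher in tKO DM3 (limma adjusted p = 0.0199), at 7.46 ± 2.14 against 4.09 ± 0.773 FPKM. Pgam2, the muscle phosphoglycerate mutase, was lower by -1.07 (adjusted p = 0.00261), at 15.2 ± 4.02 against 32.8 ± 7.85 FPKM. Klhl41 was lower by -0.73 (adjusted p = 0.026), at 31.6 ± 8.34 against 52.6 ± 11.6 FPKM. The median genotype difference of the list was 0.03 in GM and -0.03 in DM3.

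Genes listed as reported targets of class IIa deacetylases in muscle moved with the stage as well. Of 6 tested, 4 were higher and 1 lower in DM3 in each genotype. Over all genes tested, 23.2% were higher and 38.3% lower in control cells, and 24.9% and 36.0% in tKO cells. Myog and Musk passed the filter on low values only through their DM3 libraries and so had to differ. Their GM means were 0.0048 and 0.218 FPKM in control and 0.048 and 0.075 in tKO cells. These counts are therefore a description. Chrna1, an acetylcholine receptor subunit, rose by 3.40 in the controls and by 3.57 in the clones, and Myog, a myogenic bHLH factor on both target lists, by 2.66 and 3.50. Eno3, the muscle enolase, fell by 0.97 and 1.12. None was called between genotypes in either stage, the list medians being -0.13 in GM and -0.20 in DM3.

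Among the remaining deacetylases and cofactors none was called between genotypes, and the balance of their stage calls depended on the scaling. Over all genes tested, differentiation called 23.2% higher and 38.3% lower in control cells, and 24.9% and 36.0% in tKO cells. Median-of-ratios scaling moved the higher shares to 30.8% and 30.7%. Of 7 other deacetylases tested, 1 was higher and 3 lower in control DM3, and 2 higher and 3 lower in tKO DM3. Hdac11, the class IV enzyme, rose by 2.21 in the controls and by 2.01 in the clones. Hdac1, a class I enzyme, fell by 1.67 and 1.06. Among 16 corepressors and coactivators, differentiation called 1 higher and 9 lower in the controls and 1 higher and 8 lower in the tKO clones. Tbl1xr1, a subunit of the NCoR complex, rose by 0.62 and 0.66, while Ep300, an acetyltransferase that coactivates MEF2, fell by 1.05 and 0.81. The corepressor Ncor1, through which class IIa enzymes act, had changes of -0.23 and -0.08 that did not pass (limma adjusted p = 0.265 and 0.688). For 10 tested partners at muscle promoters the corresponding counts were 2 higher and 4 lower, then 3 higher and 2 lower, with Myod1, whose row is uncertain, among those higher. Under median-of-ratios scaling the counts in control and then tKO cells were 2 higher and 3 lower, then 3 and 3, for the other deacetylases. They were 2 higher and 6 lower, then 3 and 7, for the corepressors and coactivators. For the partners the balance in control cells turned to 3 higher and 1 lower, and in tKO cells it was 3 and 2. Cycling markers fell in both genotypes, from 320 to 364 summed FPKM in control GM to 75.1 to 93.7 in control DM3.

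The members resembled each other to different degrees over the 16 libraries. Pearson's r of log2(FPKM + 1) was 0.88 for Mef2a with Hdac4, 0.86 for Mef2d with Hdac4 and 0.80 for Hdac4 with Hdac5, and 0.08 to 0.36 for Hdac7 with the other tested members. These values include the shift between the stages, a shift that is small for Hdac7. With each group centred on its mean, r was 0.66 for Mef2a with Hdac4, 0.61 for Mef2d with Hdac4 and 0.17 for Mef2a with Mef2d. Among all tested genes the ones most like Mef2a were Mtus1 (0.97), Rb1 (0.96) and Stk17b (0.96), and those most like Mef2d were Itpkc, Herpud1 and Smim7 (0.98, 0.98 and 0.97). Nfe2l1, Dnajc1 and Dvl3 were most like Hdac4 (0.96 each), Sema4c, Mknk2 and Prdx2 most like Hdac5 (0.98, 0.98 and 0.97) and Ptgis, Armcx6 and Abcc1 most like Hdac7 (0.90, 0.88 and 0.86). With the groups centred, the gene most like Mef2a was Il6ra (0.97), most like Mef2d Zfp346 (0.96), most like Hdac4 Tmcc2 (0.93), most like Hdac5 Mxra7 (0.96) and most like Hdac7 Tnni1 (0.90). The 16 points share lines and replicate numbers, and these correlations are descriptions.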

How the data were processed

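Poly(A) RNA was sequenced on an Illumina HiSeq instrument, per the labels' protocols. The submitters' processing notes name STAR, DESeq and build mm10, without versions; the counting program, annotation release and use of strand are not given in the sources used here. The authors deposited 1 table of FPKM values, with 1 column per library and the gene lengths. FPKM times length gave whole fragment numbers for 100% of values (tolerance 0.1), from which depth (22642563 to 56585952 fragments) and fragment numbers were taken. Intervals on fragment numbers, and the floor of 3 fragments, cover counting error only.

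The means of the 4 groups were fitted over all 16 libraries on log2(FPKM + 1) with limma 3.58.1 in R 4.3.3 (trend and robust moderation) for 11832 genes with a mean of at least 0.5 FPKM. P-values were adjusted by the Benjamini-Hochberg method over all of them. This scale understates changes of low genes. The fit was tested on simulated data. For Mef2c and Hdac9 an exact permutation test (two-sided) was used.

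The members, the gene lists and the clone comparison were chosen with earlier results of these data known, so no list is independent support. All 7 members were named, with at most 4 genes per list and comparison, those with the largest passing change or a stated role. Genes most like a member had the highest Pearson's r over 16 libraries. Groups come from the sample titles, and replicate numbers were not accepted as pairing. Calculations used Python 3.11.15, numpy 2.4.6, pandas 2.3.3 and scipy 1.17.1. Promoters and microRNAs are from RefSeq tables of GRCm38.p6 and 3′ UTRs from GENCODE M21, whose 21015 genes with a 3′ UTR were the background. All 7 members matched the promoter table. Coordinates of genes are as deposited.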

Additional observations from a re-analysis of the deposited data

Results flagged for a closer look

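Mef2c in clone 1 replicate 2 of tKO DM3 was flagged against the other libraries of its group. It held 0.0216 FPKM (4 fragments), while the other 3 tKO DM3 libraries were at 0. Dixon's test for groups of 4 was applied to the 28 combinations of member and group, and this was the 1 combination past the critical value of 0.829. With the other 3 libraries at 0, the gap over the range is 1 whatever the remaining value. The flag was thus fixed by the zeros and does not show that this library differs. Chance flags about 1 in 20 groups.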

How the results depend on the processing

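The numbers of genes called moved with the processing, and few values of the members crossed the threshold. Differences that were not called could change sign without being counted as moved. Between genotypes in DM3, Mef2a ranged from -0.89 to 0.15 and Hdac4 from -0.20 to 0.20. Of 755 alternative limma values of the members, 740 kept their direction where called and their side of the threshold, 7 lost a call, 8 gained one and 0 reversed; these stand beside the results. Of 104 alternative exact tests of Mef2c and Hdac9, 24 moved from an unadjusted p of 0.0286, no call after adjustment, to 0.0571 or more. Of 238 alternative values of the 8 other genes called between genotypes, 82 lost the call (3 for Pgam2 to 16 for Sik1) and 0 reversed. Against 244 genes in GM and 400 in DM3 between genotypes, a minimum of 5 FPKM, which tests fewer genes, called 93 and 231, line averages 97 and 131, the data without control line 1 33 and 49, without control line 2 38 and 64, and without clone 2 1315 and 1136. Fitting only the compared libraries called 113 in DM3. Of 7272 genes called for differentiation in control cells, 4440 were called without control line 1 and 4693 without line 2. The interaction (30) became 13 with a pseudocount of 0.1, 1 with line averages, 0 without control line 1, 1 without line 2 and 101 without clone 2. The clone comparison (640) became 124 when only the 8 tKO libraries were fitted. Leaving out 1 library gave 80 to 749 genes between genotypes in GM, 208 to 854 in DM3 and 6 to 179 for the interaction, highest without clone 2 replicate 1 of GM and clone 1 replicate 1 of DM3, and 6680 to 7699 and 6785 to 7225 for differentiation in control and tKO cells. The cause was not tested.

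With the replicate number as a block the interaction called 49. Numbered within each stage, a replicate block added after the data were seen, it called 125 genes, with 635 between genotypes in GM and 748 in DM3. Under that block Hdac5 in GM (adjusted p = 0.0238) and Mef2d in DM3 (adjusted p = 0.0263) passed, at unchanged differences. Whether the numbers pair the libraries was checked by correlating, over 11832 genes, the difference between replicates 2 and 1. It was 0.54 between control and tKO GM and 0.34 between control and tKO DM3, but -0.11 to 0.10 across stages. Within a stage the number thus goes with a shared shift, and across stages no link was seen, so the numbers were not taken as pairing in the tests above. Low Mef2c and Hdac9 are limited by depth, and leaving out a line leaves too few splits for an exact p under 0.05.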
